A study of Rattus norvegicus with 24 samples.

Results

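Potassium channel genes were examined in the dentate gyrus, the hippocampal field whose granule neurons receive cortical input and which keeps producing neurons in adult rats. The genes were those with a symbol that starts with Kcn in the platform annotation, taken from probe sets with a single symbol. The array carried 126 such probe sets for 75 genes, of which 48 probe sets for 32 genes had a log2 value above 4 on at least 6 of 21 arrays. Each of the 32 genes was represented by the probe set with the highest mean. These 32 genes stand among 15177 probe sets that passed the same filter, and all 32 were above 4 on every array.

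Each array held RNA of 1 male Long-Evans rat: 7 aged impaired, 6 aged unimpaired and 8 young rats. The rats were untreated, aged rats were 24 to 26 months old and young rats 6 months, and their spatial memory had been tested in a Morris water maze before the brains were taken. Impaired rats performed worse than the young range and unimpaired rats within it. Learning in the maze was therefore used to divide the aged rats, and no separate measure of learning entered the comparisons.

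Potassium channels let potassium leave the cell, which sets the resting potential, ends the action potential and spaces the spikes of a train. Voltage-gated (Kv) channels are built from 4 pore subunits that carry cytoplasmic or membrane partners, calcium-activated channels open after calcium entry, inward rectifiers pass current near rest, and two-pore-domain channels carry background leak. Granule neurons are known for a strongly negative resting potential and sparse firing.

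Markers of granule neurons were present on each array, with 8 of 10 listed genes measured. Prox1, the transcription factor that defines granule cells, lay between 10.58 and 10.93 in aged impaired, 10.62 and 10.94 in aged unimpaired and 10.55 and 11.05 in young rats. Markers of pyramidal neurons of the neighbouring CA fields were also present (10 of 11 measured), as were 7 of 10 markers of GABA interneurons. In the CA list the CA1 marker Wfs1 lay between 3.31 and 6.79, and Neurod6 between 10.41 and 11.54. The samples were therefore a mixture of cells, in which fewer cells of a type and less RNA per cell cannot be told apart. Array medians lay between 3.77 and 3.84, and the number of arrays limits the precision of every value. The meningeal list (4 of 10 genes measured) had a mean of 9.41, 9.20 and 8.21 on impaired replicates 2, 3 and 7, against 6.98 to 7.70 on the other arrays, of which young replicate 5 had the highest. These 4 arrays were left out together in an alternative fit, in which 0 of the 32 genes were called.

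No potassium channel gene passed the test in any comparison. Over the 32 genes, limma called 0 in aged against young rats at an adjusted p below 0.05, where it called 1.11% of all probe sets tested, and 6 genes had an unadjusted p below 0.05. Log2 differences of the mean of the aged groups from young ran from -0.31 for Kcnk2 to 0.24 for Kcnh3. On the representative probe sets the 95% interval of each of the 32 differences lay within a 1.5-fold change in either direction, as it did for 96.6% of all probe sets. Of 16 further probe sets of these genes, 2 had intervals that reached past 1.5-fold, 1 of Kcnj4 (-0.02 to 0.95) and 1 of Kcnab2 (0.01 to 0.69), so a larger difference was not outside the interval on every probe set. The number of all probe sets called, 168, ran from 89 without young replicate 6 to 239 without young replicate 5 when single arrays were left out. The 6 genes with an unadjusted p below 0.05 were 18.8% of the 32, beside 14.6% of all probe sets, and they were split into 3 above and 3 below young (background 5.06% and 9.53%). In 17 of 32 genes the difference was positive, or 53.1%, beside 43.2% of all probe sets. After median centring it was positive in 20 of 32, beside 55.1% of all, and after quantile normalization in 19, beside 51.4%. The ranges of aged and young rats were fully separate in 0 of 32 genes, and in 0.0857% of all probe sets.

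**Figure D1:**
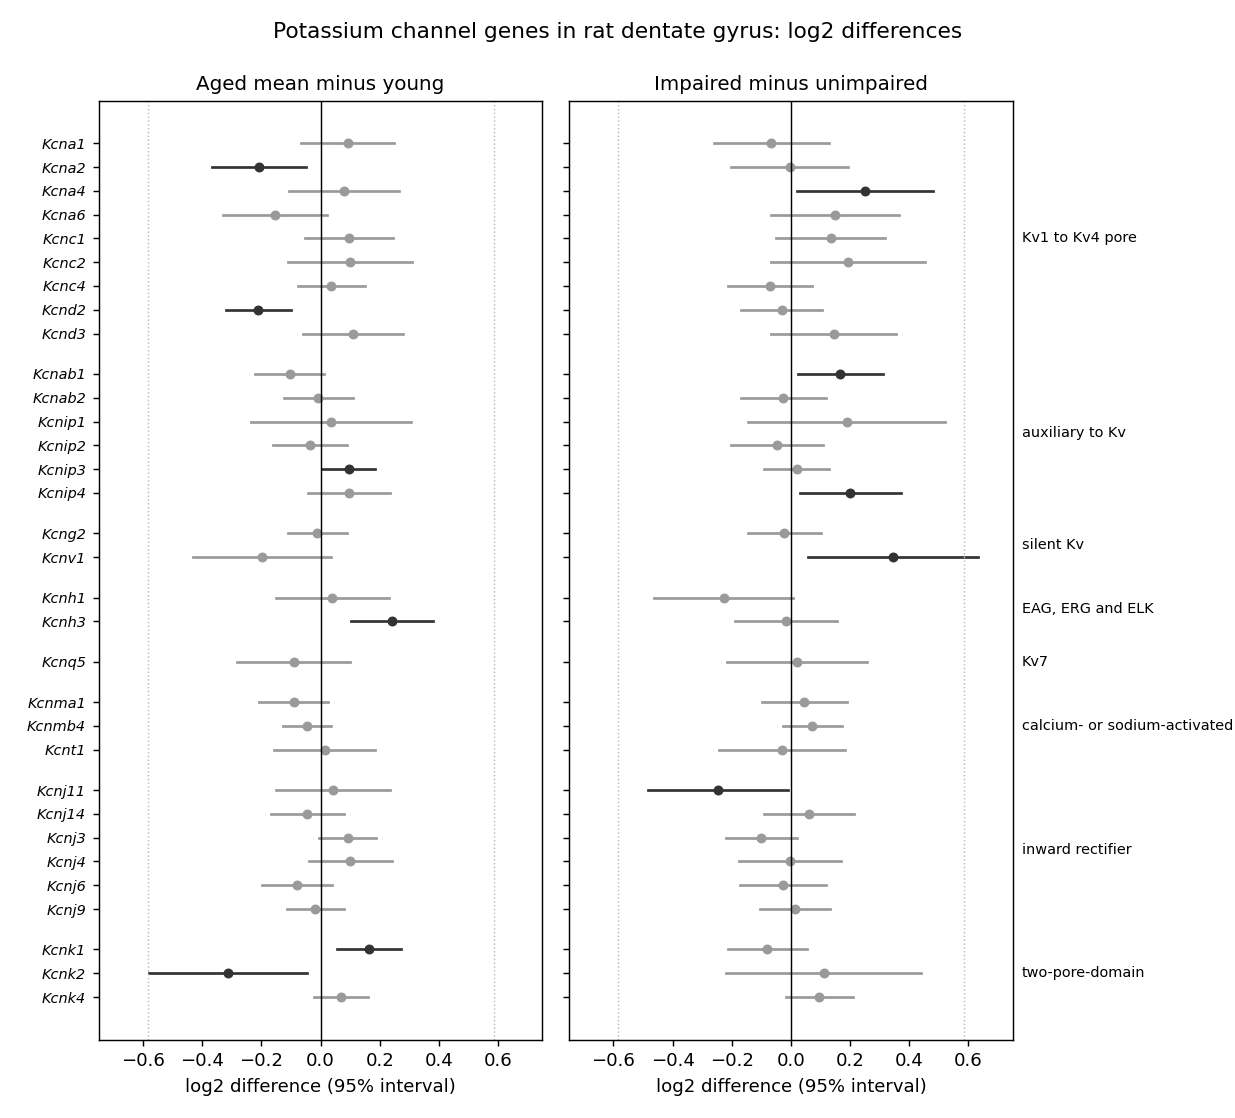
Log2 differences of 32 potassium channel genes with their 95% intervals, grouped by channel family; the left panel shows aged rats against young and the right panel impaired minus unimpaired. Dark points have an unadjusted p below 0.05, dotted lines mark a 1.5-fold change, and on the left all 32 intervals lie inside them.

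Promoter sequences were available for 25 of the 32 genes from RefSeq (GRCr8), each with 250 bases before and 50 after the annotated start. The 3 genes with a negative difference and an unadjusted p below 0.05 in aged against young rats, Kcnd2, Kcna2 and Kcnk2, all have one, and these are shown to compare the starts of genes that lay on the same side. Each is read 5′ to 3′ along the gene, and capitals mark CpG dinucleotides.
Kcnd2, chr4:50742235-50742534, plus strand: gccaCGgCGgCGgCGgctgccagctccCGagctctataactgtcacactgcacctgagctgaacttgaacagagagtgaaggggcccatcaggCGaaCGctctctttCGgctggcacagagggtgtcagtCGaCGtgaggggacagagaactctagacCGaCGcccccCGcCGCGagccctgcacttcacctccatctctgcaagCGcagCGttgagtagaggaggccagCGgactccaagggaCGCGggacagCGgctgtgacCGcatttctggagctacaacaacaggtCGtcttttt
Kcna2, chr2:197393280-197393579, plus strand: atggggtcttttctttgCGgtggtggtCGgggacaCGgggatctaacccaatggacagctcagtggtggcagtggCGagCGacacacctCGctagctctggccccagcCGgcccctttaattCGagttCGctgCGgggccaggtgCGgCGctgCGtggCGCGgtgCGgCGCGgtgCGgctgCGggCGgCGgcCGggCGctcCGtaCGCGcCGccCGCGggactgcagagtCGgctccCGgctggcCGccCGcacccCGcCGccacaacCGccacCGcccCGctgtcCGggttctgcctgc
Kcnk2, chr13:103438593-103438892, minus strand: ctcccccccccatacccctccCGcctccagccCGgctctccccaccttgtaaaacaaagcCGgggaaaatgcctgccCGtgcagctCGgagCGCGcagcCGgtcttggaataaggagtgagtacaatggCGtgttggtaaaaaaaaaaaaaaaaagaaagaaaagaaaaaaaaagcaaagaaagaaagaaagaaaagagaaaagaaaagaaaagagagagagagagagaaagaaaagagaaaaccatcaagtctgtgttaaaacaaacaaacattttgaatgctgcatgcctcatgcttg
The window of Kcna2 holds 40 CpG and is 73.3% G or C, that of Kcnd2 holds 23 and is 61.7%, and that of Kcnk2 holds 9 and is 44.3%. The 3 starts thus differ widely in base composition. Over the 25 genes the median was 65.7% G or C with 19 CpG, and over the 7333 promoters of genes tested on the array it was 62% with 22. The GC box (GGGCGG on either strand) was found in 14 of 25 windows, or 56%, and in 65.4% of the 7333. The cyclic AMP response element TGACGTCA was in 0 of 25 windows and 3.41% of the 7333, and TATAAA in 0 of 25 and 6%.

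Among the pore subunits of the Kv1 to Kv4 channels 9 of 13 genes on the array were measured. Of these 9, limma called 0, and 2 had an unadjusted p below 0.05 in aged against young rats, both below young. Over all probe sets the share at an unadjusted p below 0.05 was 14.6%, with 9.53% below young. Kcnd2 encodes the Kv4.2 subunit, which carries the fast A-type current of dendrites. Its values had a lowest, median and highest of 10.20, 10.41 and 10.52 in aged impaired rats, 10.23, 10.43 and 10.60 in aged unimpaired rats, and 10.45, 10.66 and 10.75 in young rats. All 13 aged arrays lay below the young mean, while the groups overlapped between 10.45 and 10.60. The aged mean differed from young by -0.21 ± 0.05 (SE) on the log2 scale, a ratio of 0.86, with an adjusted p of 0.0562 that missed the threshold. The difference was -0.23 ± 0.06 in impaired rats (adjusted p = 0.106) and -0.19 ± 0.06 in unimpaired rats (adjusted p = 0.133), both set against the same young arrays. A second Kcnd2 probe set gave -0.20 ± 0.07 (adjusted p = 0.206), with 12 of 13 aged arrays below the young mean. Over 31 fits, the reported one included, Kcnd2 passed in 4, among them the fit without young replicate 3 (adjusted p = 0.0443) and the fit without unimpaired replicate 3 (adjusted p = 0.04). Over the 31 limma fits its adjusted p ran from 0.04 to 0.209.

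Kcna2, the Kv1.2 subunit of axonal low-threshold channels, had 9.84, 9.93 and 10.28 (lowest, median, highest) in aged impaired, 9.81, 9.97 and 10.29 in aged unimpaired and 9.93, 10.18 and 10.56 in young rats. The 3 ranges overlapped over most of their length. The aged mean differed by -0.21 ± 0.08 (adjusted p = 0.204), below young in 11 of 13 arrays. Its usual partner Kcna1 (Kv1.1) had a difference of 0.09 ± 0.08 (adjusted p = 0.616), and Kcna6 (Kv1.6) one of -0.16 ± 0.08 (adjusted p = 0.416). Kcnd3, the Kv4.3 subunit found in interneurons as well as granule cells, had 0.11 ± 0.08 (adjusted p = 0.572). Of the Kv3 genes, whose channels allow fast firing, Kcnc1 had 0.10 ± 0.07, Kcnc2 0.10 ± 0.10 and Kcnc4, the Kv3.4 subunit of mossy fibre terminals, 0.04 ± 0.05. Over the 9 genes the median was 0.08 with 6 positive, against a median of -0.01 over all probe sets, of which 43.2% were positive.

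**Figure D2:**
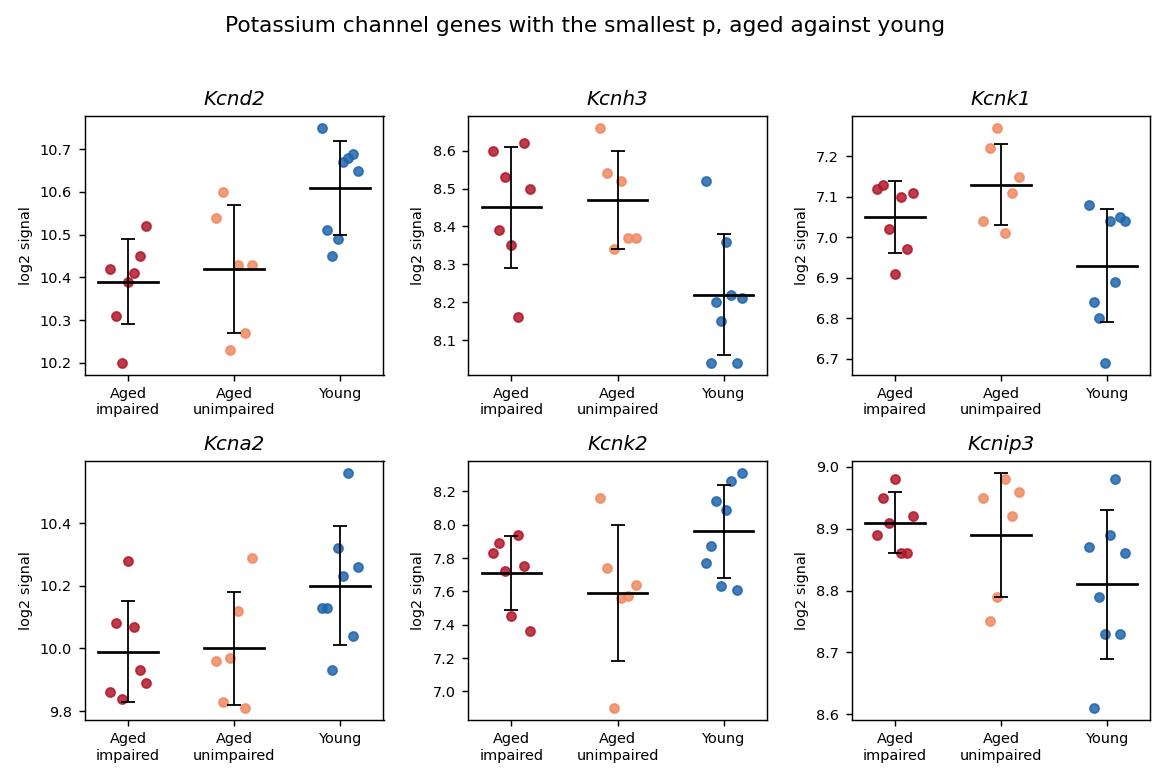
Log2 signal on each of 21 arrays for the 6 potassium channel genes with the smallest p in aged against young rats; points are arrays, the line is the group mean and the bar its SD (7 impaired, 6 unimpaired, 8 young). The aged points of Kcnd2 all lie below the young mean and those of Kcnh3 lie above it in 12 of 13 arrays, and in each panel the groups overlap.

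In aged against young rats 43.2% of all probe sets were positive on the deposited scale. CA pyramidal markers, whose cells also use these Kv subunits, had a positive difference there in 3 of 10 genes (median -0.14, 0 called). Their summed linear signal was 3844 to 5928 in aged impaired, 3584 to 4717 in aged unimpaired and 4178 to 5807 in young rats. Oligodendrocyte markers were positive in 1 of 8 genes (median -0.18, 3 called), and granule markers in 4 of 8 (median -0.0035, 1 called). Their part in the values of Kcnd2 and Kcna2 was not tested.

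Auxiliary subunits of Kv channels were measured for 6 of 11 genes, 0 of them called. Kcnip3, also known as the calcium-binding repressor DREAM, is a KChIP, a calcium sensor that binds Kv4 channels and raises their number at the membrane. It had 8.86, 8.91 and 8.98 in aged impaired, 8.75, 8.93 and 8.98 in aged unimpaired and 8.61, 8.83 and 8.98 in young rats. The highest value was the same in each group, and the aged mean differed by 0.09 ± 0.04 (adjusted p = 0.309). Kcnip2 had a difference of -0.04 ± 0.06 and Kcnip4 one of 0.10 ± 0.07 (adjusted p = 0.539). Kcnip1 was the most variable of the 32 with a within-group SD of 0.305, since young replicate 6 stood at 7.09 and unimpaired replicate 4 at 7.43 while the other 19 arrays lay between 8.01 and 8.36. The beta subunit Kcnab2 had -0.01 ± 0.06, although its 3 other probe sets ran from -0.03 to 0.35 ± 0.16 (adjusted p = 0.322 for the last).

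Kcnab1 encodes the beta subunit that speeds inactivation of Kv1 channels. Values were 10.35, 10.44 and 10.56 in aged impaired, 10.06, 10.29 and 10.46 in aged unimpaired and 10.14, 10.50 and 10.63 in young rats. All 6 unimpaired arrays lay below the young mean, as did young replicate 3 at 10.14. The unimpaired difference from young was -0.19 ± 0.07 (adjusted p = 0.166), and without young replicate 3 it was -0.235 with an adjusted p of 0.0436, which passed. A second Kcnab1 probe set gave 0.05 ± 0.10 (adjusted p = 0.858) in the same comparison, so the probe sets of this gene differed in direction.

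Two-pore-domain channels were measured for 3 of 11 genes, 0 of them called. Kcnk1 (TWIK-1), a weak background channel, had 6.91, 7.10 and 7.13 in aged impaired, 7.01, 7.13 and 7.27 in aged unimpaired and 6.69, 6.97 and 7.08 in young rats. It lay above the young mean in 12 of 13 aged arrays, with a difference of 0.16 ± 0.05 (adjusted p = 0.135). Kcnk2 (TREK-1), a leak channel opened by stretch and lipids, had 7.36, 7.75 and 7.94 in aged impaired, 6.90, 7.60 and 8.16 in aged unimpaired and 7.61, 7.98 and 8.31 in young rats. Its difference of -0.31 ± 0.13 was the largest in size of the 32 and also among the least precise, with an interval of -0.58 to -0.05 and an adjusted p of 0.25. Kcnk4 (TRAAK), related to TREK-1, had 0.07 ± 0.04. The family thus held differences of both signs.

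The EAG, ERG and ELK family was measured for 2 of 8 genes, 0 of them called. Kcnh3 encodes the ELK channel Kv12.2, whose loss in mice raises hippocampal excitability. It had 8.16, 8.50 and 8.62 in aged impaired, 8.34, 8.45 and 8.66 in aged unimpaired and 8.04, 8.20 and 8.52 in young rats. Young replicate 1 was the high one at 8.52 and impaired replicate 6 the low one at 8.16, and 12 of 13 aged arrays lay above the young mean. The aged mean differed by 0.24 ± 0.07 (adjusted p = 0.0845), a ratio of 1.18, with 0.23 ± 0.08 in impaired (adjusted p = 0.184) and 0.25 ± 0.08 in unimpaired rats (adjusted p = 0.123). Kcnh3 passed in 5 of 31 fits, including the fits with median centring (0.27, adjusted p = 0.039) and without young replicate 1 (adjusted p = 0.0287). Over the 31 limma fits its adjusted p ran from 0.0287 to 0.192. Kcnh1 (EAG1) had 0.04 ± 0.09.

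Among the remaining families Kcnv1 had the largest difference in aged against young rats. Of the 3 calcium- or sodium-activated members, Kcnma1, the pore of the BK channel that shortens spikes, had -0.09 ± 0.06, Kcnmb4, its neuronal beta subunit, -0.05 ± 0.04 and the sodium-activated Kcnt1 0.01 ± 0.08. Kcnq5, a subunit of the M-current and the 1 gene of 3 in its family that was measured, had -0.09 ± 0.09. The silent subunits, which form no channel alone and modify Kv2 channels, gave -0.01 ± 0.05 for Kcng2 and -0.20 ± 0.11 for Kcnv1. Inward rectifiers were measured for 6 of 15 genes, 0 of them called. The G protein-gated subunits Kcnj3, Kcnj6 and Kcnj9 had 0.09 ± 0.05, -0.08 ± 0.06 and -0.02 ± 0.05, Kcnj11, the pore of the ATP-sensitive channel, 0.04 ± 0.09, and Kcnj14 and Kcnj4 -0.04 ± 0.06 and 0.10 ± 0.07. The adjusted p of these 12 genes ran from 0.378 for Kcnj3 to 0.958 for Kcnt1.

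Impaired and unimpaired rats, taken singly against young, gave the same count of 0. For impaired rats limma called 0 of 32 at an adjusted p below 0.05 (0.514% of all probe sets, a count of 78 that ran from 36 to 161 as single arrays were left out, the highest without young replicate 5), with 6 genes at an unadjusted p below 0.05, or 18.8% beside 12.4%. Of the 6 genes, 4 were above and 2 below young (background 7.69% and 4.73%), and 14 of 32 differences were positive, or 43.8%, beside 55.2% of all. Ranges were fully separate in 0 of 32 genes (0.316% of all), and all 32 intervals lay within 1.5-fold, as did 95.2% of all. For unimpaired rats it called 0 (1.13% of all, a count of 172 that ran from 59 without young replicate 9 to 219 without young replicate 1), with 9 genes at an unadjusted p below 0.05, or 28.1% beside 17%, 3 above and 6 below young (background 3.18% and 13.8%). Positive differences made up 15 of 32, or 46.9%, beside 34% of all, and 20 of 32 after median centring, beside 56.1% of all. The ranges were fully separate in 0 of 32 genes (0.949% of all). The intervals of 30 of 32 lay within 1.5-fold (94.2% of all). The 2 exceptions were Kcnk2, with -0.37 ± 0.15 and an interval reaching -0.69, and Kcnv1, with -0.37 ± 0.13 (adjusted p = 0.169) and an interval reaching -0.65. Of 16 further probe sets, 2 reached past 1.5-fold for impaired and 2 for unimpaired rats, in each case a Kcnj4 and a Kcnab2 probe set. In unimpaired rats Kcnj3 had 0.14 ± 0.06 (adjusted p = 0.201) and Kcnk1 0.20 ± 0.06 (adjusted p = 0.11). For both genes 6 of 6 unimpaired arrays exceeded the young mean, and Kcnj3 ran from 7.03 to 7.29 there and from 6.80 to 7.11 in young rats. In impaired rats Kcnk4 had 0.12 ± 0.05 (adjusted p = 0.327), with 6.14 to 6.23 there and 5.79 to 6.17 in young rats. Without young replicate 3, the array at 5.79, the Kcnk4 difference was 0.078 (adjusted p = 0.487). A moderated F test over the 3 groups called 0 of 32 (0.896% of all probe sets), with a smallest adjusted p of 0.0968 and 7 genes at an unadjusted p below 0.05, or 21.9% beside 18.8%.

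Impaired and unimpaired rats were compared with each other because both are of the same age and differ in maze learning. Here limma called 0 of the 32 and 0% of all 15177 probe sets. Without unimpaired replicate 7 it called 4 of all probe sets, and 0 without any other single array. An unadjusted p below 0.05 was found for 5 potassium channel genes, or 15.6%, beside 14.5% of all, with 4 above and 1 below unimpaired (background 12.8% and 1.65%). Positive differences made up 17 of 32, or 53.1%, beside 72.4% of all probe sets, whose median was 0.05. The count of positive genes was 13 after median centring, beside 45.6% of all probe sets, and 13 after quantile normalization, beside 47.2%, and the median of the 32 genes was then -0.04 and not 0.02.

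Kcnv1, the silent subunit Kv8.1, had 7.26, 7.57 and 8.19 in impaired and 7.02, 7.33 and 7.64 in unimpaired rats, with 7.45, 7.66 and 8.02 in young. Impaired replicates 3 and 4 were high at 8.02 and 8.19, and the other 5 impaired arrays lay between 7.26 and 7.68. The impaired mean differed from the unimpaired by 0.35 ± 0.14 (adjusted p = 0.257), with an interval of 0.06 to 0.63 that was the 1 of 32 to reach past 1.5-fold. Of 16 further probe sets, 1 of Kcnj4 also reached past it, with 0.74 ± 0.29 (adjusted p = 0.244) and an interval of 0.15 to 1.34. The representative Kcnj4 probe set gave -0.003 in the same comparison. Kcna4, the fast-inactivating Kv1.4 subunit of axons, had 8.32, 8.57 and 8.65 in impaired and 8.19, 8.28 and 8.37 in unimpaired rats. Impaired replicate 7 alone lay within the unimpaired range, and the difference was 0.25 ± 0.11 (adjusted p = 0.301). Kcnip4 had 9.20, 9.49 and 9.67 in impaired and 9.11, 9.28 and 9.41 in unimpaired rats, a difference of 0.20 ± 0.08 (adjusted p = 0.265), with 6 of 7 impaired arrays above the unimpaired mean. Its second probe set gave 0.08 ± 0.14 (adjusted p = 0.824), with 3 of 7 impaired arrays above that mean.

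Kcnab1 differed by 0.17 ± 0.07 (adjusted p = 0.272) with all 7 impaired arrays above the unimpaired mean, but its second probe set gave -0.10 ± 0.10. Kcnj11 (Kir6.2), which links the metabolic state of the cell to its excitability, had 5.01, 5.42 and 5.48 in impaired and 5.31, 5.45 and 5.92 in unimpaired rats. The difference was -0.25 ± 0.11 (adjusted p = 0.323), and unimpaired replicates 1 and 3 were the high arrays. On its second probe set Kcnj11 had -0.115 ± 0.081 (adjusted p = 0.524). Kcnh1 had 7.47, 7.85 and 8.06 in impaired and 7.69, 8.08 and 8.24 in unimpaired rats, a difference of -0.23 ± 0.11 (adjusted p = 0.361). Ranges of impaired and unimpaired rats were fully separate in 0 of the 32 genes, and in 1.05% of all probe sets.

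**Figure D3:**
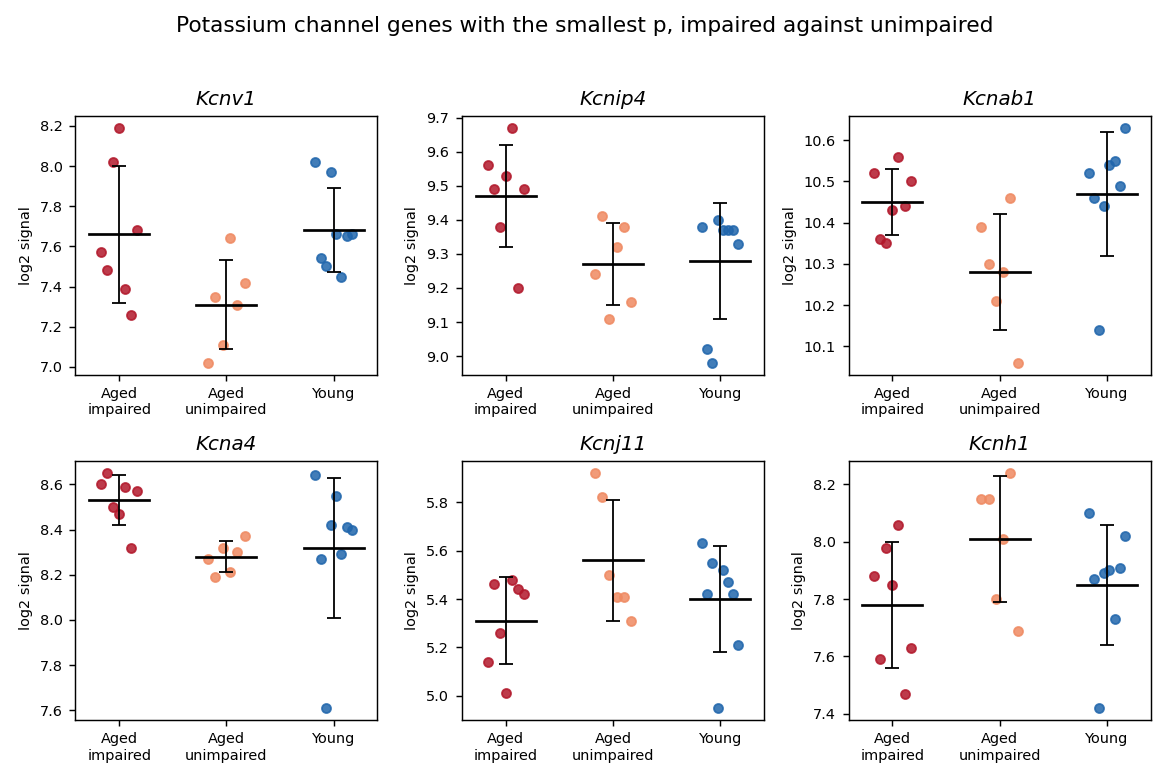
Log2 signal on each array for the 6 potassium channel genes with the smallest p in impaired against unimpaired rats, with young rats on the right; points are arrays, lines are group means and bars SDs. Impaired points of Kcna4 lie above the unimpaired range except 1, and young replicate 3 is the lowest young point of Kcna4, Kcnab1 and Kcnh1.

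Markers of other cell types, 0 of them called, had mostly positive differences in the same comparison, in which 72.4% of all probe sets were positive. The marker counts were taken only on the deposited scale, and after median centring 45.6% of all probe sets were positive. Meningeal and fibroblast markers were positive in 4 of 4 genes with the largest median of the 10 lists, 0.91, and choroid plexus markers in 2 of 2 (median 0.41). The summed meningeal signal was 1566 to 18510 in impaired and 1408 to 2022 in unimpaired rats, and impaired replicate 3, a high array for Kcnv1, was among the high arrays of this list, while impaired replicate 4, the highest for Kcnv1, had the lowest meningeal mean of all arrays at 6.98. GABA interneuron markers had a positive difference in 7 of 7 genes (median 0.18), with a summed signal of 4819 to 5387 in impaired and 4032 to 4789 in unimpaired rats. CA pyramidal markers were positive in 8 of 10 genes (median 0.12), with sums of 3844 to 5928 in impaired and 3584 to 4717 in unimpaired rats. Oligodendrocyte markers were positive in 8 of 8 (median 0.23). Their part in the values of Kcnv1, Kcna4 and Kcnip4 was not tested.

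In 13 genes there were further probe sets, 16 in all, and 10 of the 16 had the sign of the representative probe set in aged against young rats. That count was 11 in impaired against young, 9 in unimpaired against young and 9 in impaired against unimpaired rats. Kcnj4 encodes the inward rectifier Kir2.3. Its representative probe set gave 0.10 ± 0.08 in impaired against young rats (adjusted p = 0.655). The other Kcnj4 probe set gave 0.84 ± 0.27 (adjusted p = 0.171), with 4.95 to 5.99 in impaired, 3.81 to 5.20 in unimpaired and 3.40 to 5.38 in young rats. All 7 impaired arrays were above the young mean on it, and its values reached below the filter level of 4 in unimpaired and young rats. Both probe sets gave 0.10 in unimpaired against young rats, with an SE of 0.08 on the representative and 0.28 on the other. No further probe set passed in any comparison (smallest adjusted p = 0.171).

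**Figure D4:**
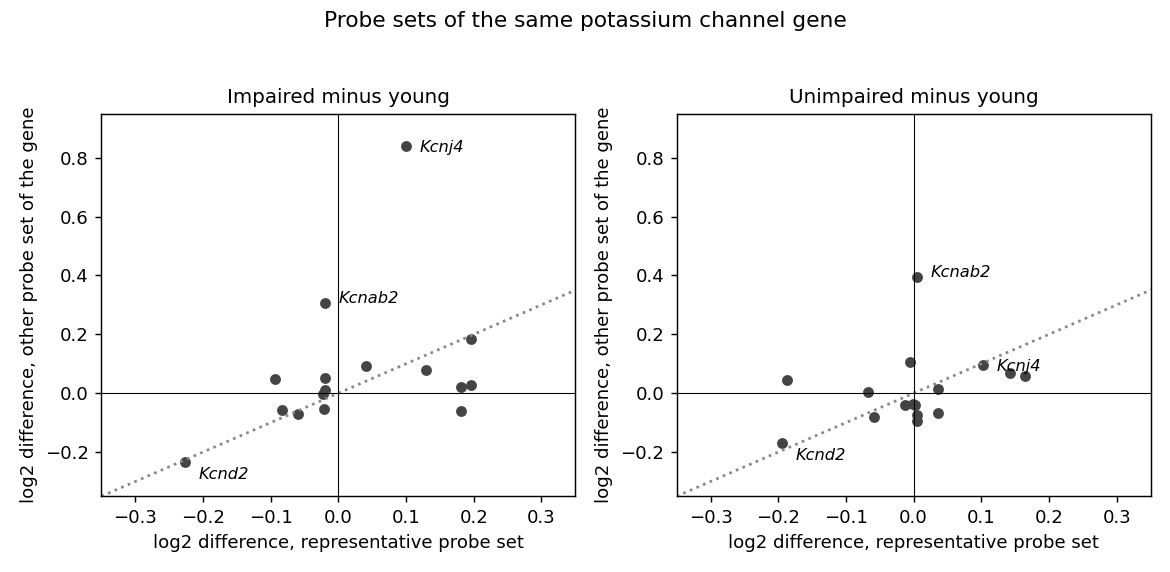
Log2 differences from young given by the representative probe set (horizontal axis) and by each other probe set of the same gene (vertical axis), 16 points in each panel; the dotted line is equality. The Kcnd2 point lies near the line in both panels, while the other Kcnj4 probe set reads 0.84 in impaired rats against 0.10 for the representative one.

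Within groups the 32 genes had a median SD of 0.152 (0.08 for Kcnmb4 to 0.305 for Kcnip1), beside 0.135 over all probe sets. To see whether subunits of one channel varied together, the correlation of 16 pore and partner pairs was computed over 21 arrays after each group mean was removed, with p adjusted over the 16. Each gene was taken by its passing probe set with the highest mean, so other probe sets, such as those of Kcnab2, were not used. Pearson's r passed for 2 pairs. How often other pairs of genes on these arrays reach such an r was not computed. Kcna1 and its beta subunit Kcnab2 had r = 0.711 (permutation p = 0.00205, adjusted p = 0.0328) and Spearman's rho = 0.657 (permutation p = 0.00477, adjusted p = 0.0763), with r = 0.569 without the 2 arrays farthest from the median of Kcna1. Kcnma1 and Kcnmb4, the pore and beta subunit of BK channels, had r = 0.592 (permutation p = 0.00521, adjusted p = 0.0417) and rho = 0.449 (permutation p = 0.0514, adjusted p = 0.411), with r = 0.472 without the 2 farthest arrays. Without the 4 arrays with high meningeal markers 0 pairs passed, although r was 0.667 and 0.615 (adjusted p = 0.0881 for both). The arrays share 1 normalization, and mixture of cells differs between them, so that values on an array are not independent between genes.

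**Figure D5:**
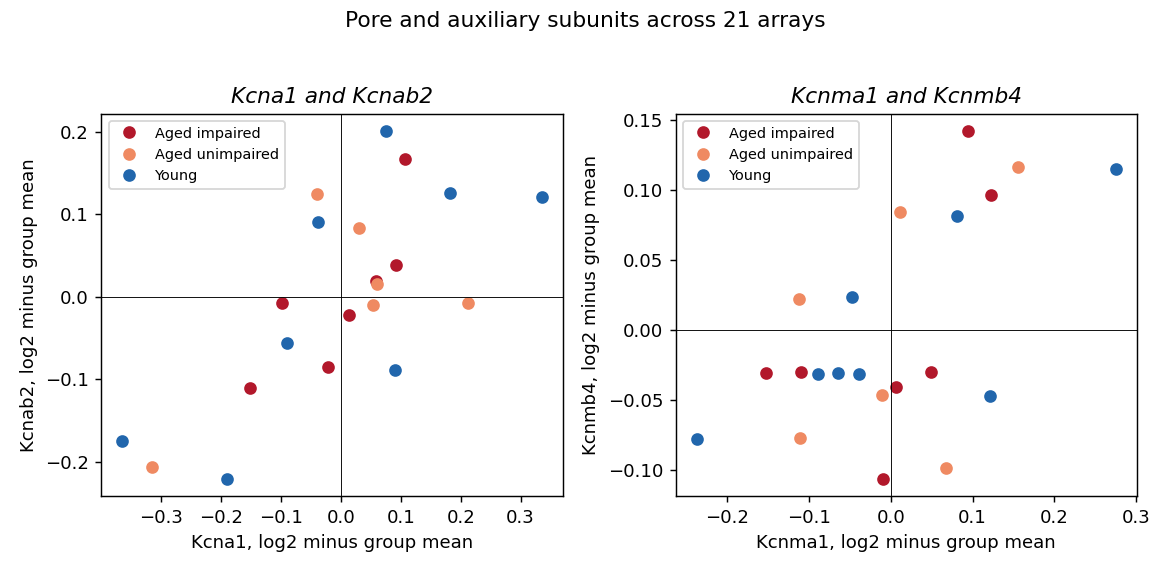
Log2 values minus the group mean on 21 arrays for Kcna1 and Kcnab2 (left, r = 0.711) and for Kcnma1 and Kcnmb4 (right, r = 0.592); each point is 1 rat, coloured by group. In both panels arrays low in 1 subunit tend to be low in the other.

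The other pairs did not pass. With the 2 other Kv1 subunits tested, Kcnab2 had r = -0.031 (Kcna2) and r = 0.034 (Kcna4), with an adjusted p of r of 0.936 for both. Kcnd2 had r = 0.429 with Kcnip4 (rho = 0.34, adjusted p of r = 0.295) and r = -0.020 with Kcnip2. For Kcna4 and Kcnab1, r was 0.551 (rho = 0.164, adjusted p of r = 0.295) and 0.025 without 2 arrays, so that it rested on those arrays. Kcna1 and Kcna2, which form mixed channels in axons, had r = 0.091 (rho = 0.143, adjusted p of r = 0.936), but r = 0.474 without the 2 farthest arrays, so that the low value rested on those arrays.

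Proteins that assemble with potassium channels or control them, but lack a Kcn symbol, were taken from a list of 34 genes, of which 25 were measured. In each of the 4 comparisons limma called 0 of the 25 in either direction, with 2 to 4 genes at an unadjusted p below 0.05. These are 8% to 16% of the list, beside 12.4% to 17% of all probe sets. Positive differences made up 2 of 25 in unimpaired against young rats, or 8% beside 34% of all probe sets, and 22 of 25 in impaired against unimpaired rats, or 88% beside 72.4%. After median centring these shares of all probe sets were 56.1% and 45.6%. The counts of the list were taken only on the deposited scale. Dpp6, the membrane partner that speeds Kv4 channels, had -0.19 ± 0.06 in aged against young rats (adjusted p = 0.102) and the scaffold Dlg4 -0.14 ± 0.05. Chrm1, the muscarinic receptor that closes M-channels, had 0.30 ± 0.10 in impaired against young rats (adjusted p = 0.169). Vapb, a membrane protein that binds Kv2 channels, had 0.17 ± 0.05 in impaired against unimpaired rats (adjusted p = 0.165).

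The 43 genes that were not retained include 41 with no array above 4 on any probe set. The 2 nearest to the filter were Kcnq3, a subunit of the M-current, above 4 on 5 arrays, and Kcnj16, an inward rectifier of glia and epithelia, above 4 on 4 arrays. Just inside it were Kcnt1, with a lowest value of 4.31, and Kcnj9, with 4.75, both above 4 on 21 of 21 arrays.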

How the data were processed

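Per the submitters' processing notes the authors summarised Affymetrix Rat Genome arrays with GCRMA (version not given in the sources used here), and the values they deposited are on the log2 scale. Of 24 columns 3 are empty, 1 per group, because the submitters omitted those arrays for quality control. The labels give no batch or hybridization date. Symbols are those of GEO's platform annotation.

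Of 31099 probe sets 57 are controls and were left out, and 15177 passed the filter of a log2 value above 4 on at least 6 arrays. The 3 groups entered 1 linear model per probe set (lmFit and eBayes of limma 3.58.1, R 4.3.3), with 18 residual degrees of freedom and Benjamini-Hochberg adjustment over all 15177. The code was tested on simulated data. Values are differences between group means ± moderated SE, and intervals are 95% intervals of that fit, not adjusted for multiple tests. An array is said to lie above or below the mean of the group it is set against. The labels call the samples biological replicates. Correlations used Pearson's r and Spearman's rho with 100000 permutations of arrays within groups, two-sided. Log2 levels of different probe sets served only to choose the representative probe set and the named genes and to place genes against the filter, and no result compares levels between genes.

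The members and lists were chosen with earlier results of these data known. Genes were named by a rule: the 6 smallest p in each comparison, the probe set with the highest value in each family, the 5 with the highest values and the 3 largest SDs, while other members are given by their values. The 4 genes Kcnj4, Kcnj16, Kcnq3 and Kcnt1 and the 4 partner genes with values were chosen after their values were seen. Alternatives were other filters, scalings, spread models and array weights, the mean of a gene's probe sets, fewer arrays or groups, a replicate block, and leaving out each array. Same-numbered arrays of different groups (17 pairs) had a median correlation of deviations of -0.011 (-0.118 to 0.2).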

Additional observations from a re-analysis of the deposited data

Results flagged for a closer look

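Of 63 groups tested over 21 named genes, 8 held an array far from the others, by its gap to the nearest array relative to the range. Chance flags about 1 in 20 independent groups. That rate cannot be set against the 8, since Kcnip1 was named for its large SD and 1 array can recur over genes. Young replicate 3 was the low array in 4 of them. It stood at 7.61 for Kcna4 (others 8.27 to 8.64), at 10.14 for Kcnab1 (others 10.44 to 10.63), at 10.49 for Kcnj6 (others 10.67 to 10.83) and at 5.79 for Kcnk4 (others 5.99 to 6.17). On the same array the microglial marker mean was 8.94 (8.30 to 8.66 on the other young arrays). The granule marker mean was 9.81 (9.72 to 10.19 on the other young arrays). The part of these cells in the values was not tested.

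Kcnip1 held 2 such arrays: unimpaired replicate 4 at 7.43 (others 8.01 to 8.27) and young replicate 6 at 7.09 (others 8.15 to 8.35). Unimpaired replicate 1 stood at 5.92 for Kcnk4 (others 6.08 to 6.14). Impaired replicate 4 stood at 10.47 for Kcnq5 (others 9.69 to 9.92).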

How the results depend on the processing

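The count of genes called stayed at 0 for impaired against young, impaired against unimpaired and the F test under every alternative run. In aged against young rats 1 gene was called with a filter above log2 6 and with trend and robust variance (Kcnd2, adjusted p = 0.0496 and 0.0475), and with median centring, quantile normalization and array weights (Kcnh3, adjusted p = 0.039, 0.0407 and 0.0487). Leaving out each array in turn gave 0 to 1 genes there (adjusted p of the leading gene 0.0287 to 0.119) and 0 to 1 in unimpaired against young rats, the 1 being Kcnab1 without young replicate 3. The cause was not tested. The median of the 32 genes was 0.052 with median centring and 0.049 with quantile normalization in unimpaired against young rats, and -0.043 and -0.045 in impaired against unimpaired rats. Over all probe sets the median of unimpaired against young was 0.02 with median centring and -0.04 as deposited. Leaving out arrays moved these medians by less than the SD over arrays of 0.051. With the replicate block, on 19 arrays, 0 genes were called in each comparison. Over all probe sets that fit called 114 in impaired and 9 in unimpaired against young rats, beside 78 and 172 in the reported fit. Of 17 same-numbered pairs 4 had a correlation over 0.1, which cannot show whether arrays of the same number shared a processing step. Of the partner correlations, 0 passed without the 4 arrays with high meningeal markers, an alternative chosen after seeing the data. No named gene changed sign under the alternatives run in the comparison that named it. The number of arrays limits what can be seen: standard errors in aged against young rats ran from 0.039 to 0.129.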

Other observations

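Kcnj16, which missed the filter, was above a log2 value of 4 on impaired replicates 1, 3, 4 and 8 (4.48, 4.85, 4.79 and 4.38) and on no other array. The other 3 impaired arrays stood at 3.76, 3.90 and 3.77, unimpaired arrays at 3.72 to 3.79 and young arrays at 2.31 to 3.77. In a fit with no filter the impaired difference from young was 0.75 (adjusted p = 0.234). Kcnq3 was above 4 on impaired replicate 8 (5.49) and on young replicates 1, 2, 3 and 7 (4.21, 4.01, 4.46 and 5.17), with an adjusted p of 0.78 or more in the comparisons with young.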
